A study of Mus musculus with 15 samples.

Results

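The 10 genes described here encode pattern recognition receptors and their partners, chosen by name from the mouse gene table: the cell surface receptors Tlr2 and Tlr4, the endosomal receptors Tlr3, Tlr7 and Tlr9, the chaperone Unc93b1, the adaptor Myd88, the cytosolic RNA sensors Ddx58 and Ifih1, and the nucleic acid sensor Zbp1. All 10 were found among the 36265 genes with values. RNA was sequenced from substantia nigra of C57Bl/6J mice, harvested 3 weeks after stereotaxic injection of 1 side with an adeno-associated virus (AAV), while the opposite side was left uninjected. The injected sides received AAV-hSYN1-miR-181 (1.65e10 vector genomes, 3 mice) or, as a control vector, AAV-hSYN1-GFP (1e10 vector genomes, 4 mice), and the uninjected sides numbered 3 in the miR-181 set and 5 in the GFP set, GFP mouse 5 being represented by its uninjected side alone. The mice were otherwise naive, and their age and sex are not given in the sources used here.

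The hSYN1 promoter drives expression in neurons, whereas the tissue sequenced was whole dissected nigra, and the libraries analysed include no side injected with vehicle alone. Both sets were made, sequenced and normalized separately, so levels were tested only within a set. The values are normalized transcript abundances per gene, scaled like TPM, so they take transcript length into account. From 15022 to 15563 genes reached a value of 1 in each of the 15 libraries. Th and Slc6a3, which mark dopamine neurons, were present in every library (Th 171 to 349 on miR-181 injected sides and 235 to 348 on their uninjected sides; 473 to 603 on GFP injected sides and 345 to 604 on theirs). Both libraries of GFP mouse 1 also held pituitary hormone transcripts: Prl and Gh together made up 0.227% of its injected library and 4.70% of its uninjected one.

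Toll-like receptors (TLRs) recognise microbial products and nucleic acids by a leucine-rich domain, at the cell surface or in endosomes, and most of them signal through the adaptor MyD88 to NF-kB and interferon regulatory factors. RIG-I, encoded by Ddx58, and MDA5, encoded by Ifih1, detect double-stranded and 5′-triphosphate RNA in the cytosol and signal through the mitochondrial protein MAVS. Many of these sensor genes are themselves induced by interferon. In brain, TLRs are carried chiefly by microglia, the resident macrophages, while TLR3 is also found in astrocytes. TLR9 is known as a receptor for the unmethylated CpG DNA of AAV genomes.

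In miR-181 injected nigra 7 of the 10 genes were higher than in uninjected nigra: Tlr2, Tlr7, Tlr9, Unc93b1, Ddx58, Ifih1 and Zbp1 rose, by log2 differences of 1.42 to 4.87. Tlr3, Tlr4 and Myd88 did not pass the test. Zbp1 differed most, at a mean of 37.3 ± 20.3 against 0.629 ± 0.107 (SD, n = 3 each). The fit was limma on log2(value + 0.5), with Benjamini-Hochberg adjustment over all 15453 genes tested and a call at an adjusted p under 0.05. Of those genes 4.39% were called higher and 1.49% lower. When each library was centred on its median log2 value, the calls over all genes became 634 higher and 468 lower, against 678 and 230, and 7 of the 10 sensor genes were again called. The median log2 difference of the 10 genes was 1.63, against 0.0036 over all genes tested. Differences in log2(value + 0.5) understate the change of genes at low levels, Zbp1 on uninjected sides among them. In whole tissue, more cells of a type and more RNA per cell cannot be told apart.

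In GFP injected nigra 3 of the 9 genes tested were higher than in uninjected nigra: Tlr2, Unc93b1 and Zbp1. Over all 15274 genes tested in that set, 1.34% were called higher and 0.0131% lower. The median log2 difference of the 9 genes was 0.72, against 0.0046 over all genes. Tlr4 had a mean under 1 over these libraries and was not tested.

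**Figure D1:**
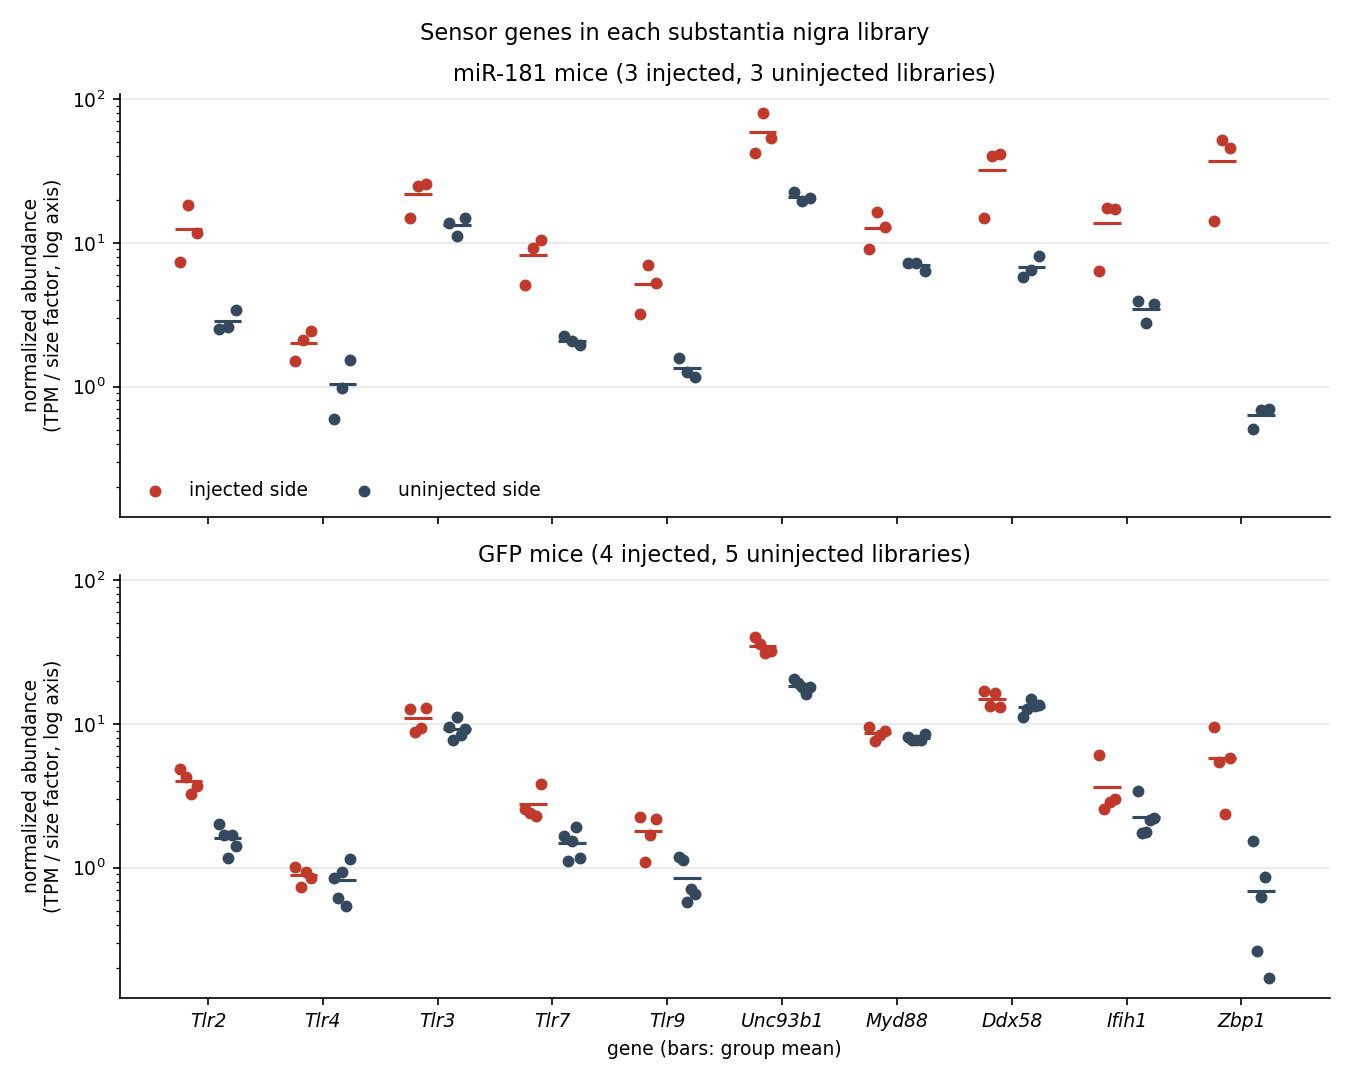
Normalized abundance (log10 axis) of the 10 genes in each library of the miR-181 set (top) and the GFP set (bottom), injected beside uninjected sides, with bars at the group means. Zbp1 on miR-181 injected sides lies between 14.1 and 52.0, above its uninjected sides at 0.506 to 0.700.

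TLR2, a surface receptor that pairs with TLR1 or TLR6 to bind lipoproteins, is encoded at chr3:83836272-83841767, minus strand (GRCm38, GENCODE M21). Tlr2 had normalized abundances of 7.34, 18.2 and 11.6 on the injected sides of miR-181 mice 1 to 3, against 2.52, 2.61 and 3.42 on the uninjected sides of mice 1 to 3. Every injected side lay above every uninjected side, with mouse 2 the highest and mouse 1 the lowest of the injected sides. The log2 difference was 1.87 ± 0.30 (SE; limma, adjusted p = 0.0210). GFP mice had Tlr2 values of 4.89, 4.28, 3.28 and 3.72 on the injected sides of mice 1 to 4, against 2.02, 1.70, 1.18, 1.69 and 1.42 on the uninjected sides of mice 1 to 5. These groups did not overlap either, and the difference was 1.11 ± 0.17 (SE; limma, adjusted p = 0.0104). Tlr2 was called without any 1 of the 9 GFP libraries.

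TLR4 is the lipopolysaccharide receptor (chr4:66827584-66930284, plus strand). Tlr4 was the gene of the 10 with the lowest mean on injected sides of both sets, at 1.498, 2.11 and 2.45 on the injected sides of miR-181 mice 1 to 3, against 0.596, 0.970 and 1.53 on the uninjected sides of mice 1 to 3. The groups overlapped, since uninjected mouse 3 was slightly above injected mouse 1, and the log2 difference of 0.74 ± 0.29 (SE) had a limma adjusted p of 0.189. Its GFP values were 1.02, 0.738, 0.938 and 0.843 on the injected sides of mice 1 to 4, against 0.846, 0.618, 0.928, 0.544 and 1.15 on the uninjected sides of mice 1 to 5, with each injected side inside the range of the uninjected sides. With the minimum mean lowered to 0.1, so that Tlr4 could be tested, its log2 difference in that set was 0.09 (limma, adjusted p = 0.919).

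TLR3 binds double-stranded RNA in endosomes and signals through TRIF rather than MyD88 (chr8:45395665-45411080, minus strand). Tlr3 values were 14.98, 24.8 and 25.8 on the injected sides of miR-181 mice 1 to 3, against 13.8, 11.2 and 14.9 on the uninjected sides of mice 1 to 3. The injected sides of mice 2 and 3 were well above the uninjected sides, but injected mouse 1 was barely above uninjected mouse 3. The log2 difference was 0.67 ± 0.21 (SE; limma, adjusted p = 0.126). For Tlr3 the GFP mice gave 12.7, 8.86, 9.31 and 12.8 on the injected sides of mice 1 to 4, against 9.52, 7.76, 11.1, 8.38 and 9.22 on the uninjected sides of mice 1 to 5, with overlapping groups and a difference of 0.23 ± 0.14 (SE; limma, adjusted p = 0.671). Exons of the antisense gene Gm45542 cover 381 exonic bases of Tlr3. The library kit keeps strand, but whether quantification used it is not given in the sources used here.

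TLR7, an endosomal receptor for single-stranded RNA, is X-linked (chrX:167304929-167330558, minus strand). Tlr7 had 5.06, 9.19 and 10.4 on the injected sides of miR-181 mice 1 to 3, against 2.23, 2.07 and 1.94 on the uninjected sides of mice 1 to 3. Its uninjected sides lay close together and each injected side was well above the highest of them. Tlr7 differed by a log2 value of 1.70 ± 0.25 (SE; limma, adjusted p = 0.0158). GFP mice had Tlr7 values of 2.57, 2.40, 2.28 and 3.83 on the injected sides of mice 1 to 4, against 1.66, 1.11, 1.53, 1.92 and 1.17 on the uninjected sides of mice 1 to 5. The GFP groups did not overlap, yet the difference of 0.72 ± 0.20 (SE) missed the threshold (limma, adjusted p = 0.167).

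TLR9, the endosomal receptor for unmethylated CpG DNA, is encoded at chr9:106222598-106226883, plus strand. Tlr9 had 3.22, 6.96 and 5.27 on the injected sides of miR-181 mice 1 to 3, against 1.58, 1.27 and 1.17 on the uninjected sides of mice 1 to 3. All injected sides were above all uninjected sides, and the log2 difference was 1.57 ± 0.27 (SE; limma, adjusted p = 0.0240). With the GFP vector Tlr9 had 2.24, 1.09, 1.70 and 2.18 on the injected sides of mice 1 to 4, against 1.19, 1.13, 0.579, 0.707 and 0.655 on the uninjected sides of mice 1 to 5. Injected mouse 2 lay within the range of the uninjected sides while the other injected sides lay above it, and the difference of 0.76 ± 0.24 (SE) did not pass (limma, adjusted p = 0.274). Tlr9 averaged 0.853 on these uninjected sides, so it reached the minimum mean of 1 only through its injected sides.

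UNC93B1 carries the nucleic acid-sensing TLRs from the endoplasmic reticulum to endosomes (chr19:3935186-3949340, plus strand). Unc93b1 was the most abundant of the 10 genes in all 4 groups, with 41.9, 80.3 and 53.9 on the injected sides of miR-181 mice 1 to 3, against 22.4, 19.7 and 20.5 on the uninjected sides of mice 1 to 3. The uninjected sides were tightly grouped and all injected sides lay above them. The log2 difference was 1.42 ± 0.21 (SE; limma, adjusted p = 0.0165). With the GFP vector Unc93b1 had 40.5, 35.8, 31.2 and 32.0 on the injected sides of mice 1 to 4, against 20.4, 19.4, 18.1, 16.2 and 17.9 on the uninjected sides of mice 1 to 5. These groups were also apart, with a difference of 0.90 ± 0.09 (SE; limma, adjusted p = 0.00104), the smallest p of the 9 genes in that set, and the call held without any 1 of its 9 libraries.

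MyD88 links every TLR except TLR3, and the interleukin-1 receptors, to the IRAK kinases (chr9:119335934-119341411, minus strand). Myd88 had 8.996, 16.3 and 12.8 on the injected sides of miR-181 mice 1 to 3, against 7.27, 7.27 and 6.41 on the uninjected sides of mice 1 to 3. The groups did not overlap, but the log2 difference of 0.78 ± 0.20 (SE) missed the threshold (limma, adjusted p = 0.0711). For Myd88 the GFP mice gave 9.45, 7.59, 8.44 and 8.997 on the injected sides of mice 1 to 4, against 8.08, 7.69, 7.72, 7.72 and 8.54 on the uninjected sides of mice 1 to 5, with overlapping groups and a difference of 0.11 ± 0.08 (SE; limma, adjusted p = 0.743). Myd88 lies within the span of Slc22a14 without sharing exonic bases with it, and it shares 290 exonic bases with Acaa1a on the opposite strand.

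Ddx58 lies at chr4:40203773-40239828, minus strand. Ddx58 had 14.9, 40.1 and 41.3 on the injected sides of miR-181 mice 1 to 3, against 5.75, 6.45 and 8.14 on the uninjected sides of mice 1 to 3. The injected sides of mice 2 and 3 were alike and far above that of mouse 1, which was itself above every uninjected side. This gave Ddx58 a log2 difference of 2.04 ± 0.38 (SE; limma, adjusted p = 0.0303). Among GFP mice Ddx58 had 16.9, 13.4, 16.4 and 13.03 on the injected sides of mice 1 to 4, against 11.2, 12.7, 14.97, 13.3 and 13.6 on the uninjected sides of mice 1 to 5. Those groups overlapped and the difference was 0.17 ± 0.10 (SE; limma, adjusted p = 0.673). Its uninjected sides had a mean of 6.78 ± 1.23 in the miR-181 set (SD, n = 3) and 13.2 ± 1.37 in the GFP set (SD, n = 5), a gap that was not tested because the sets were normalized separately.

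Ifih1 lies at chr2:62595798-62646255, minus strand. Ifih1 had 6.40, 17.4 and 17.3 on the injected sides of miR-181 mice 1 to 3, against 3.93, 2.76 and 3.77 on the uninjected sides of mice 1 to 3. Mice 2 and 3 again stood together above mouse 1, and all injected sides were above the uninjected ones. The log2 difference was 1.72 ± 0.37 (SE; limma, adjusted p = 0.0462), the weakest of the 7 calls, and it was lost with mouse as a block (adjusted p = 0.0671). Among GFP mice Ifih1 had 6.13, 2.56, 2.87 and 3.01 on the injected sides of mice 1 to 4, against 3.397, 1.74, 1.77, 2.13 and 2.23 on the uninjected sides of mice 1 to 5. Injected mouse 1 was the highest GFP library and the other injected sides lay within the uninjected range, with a difference of 0.54 ± 0.25 (SE; limma, adjusted p = 0.551).

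ZBP1 binds left-handed Z-form nucleic acids and can start necroptosis through RIPK3 (chr2:173206612-173218923, minus strand). Zbp1 had 14.1, 52.0 and 45.9 on the injected sides of miR-181 mice 1 to 3, against 0.506, 0.682 and 0.700 on the uninjected sides of mice 1 to 3. Each uninjected side was under 1, and even the lowest injected side, that of mouse 1, was above 14. The log2 difference was 4.87 ± 0.46 (SE; limma, adjusted p = 0.00399). Zbp1 averaged 0.629 on these uninjected sides and 0.691 on those of the GFP set, under the minimum mean of 1. It was thus tested in each set only through its injected sides. With no filter it was still called in the miR-181 and GFP sets (limma, adjusted p = 0.0218 and 0.0440). Zbp1 in the GFP mice had 9.45, 5.46, 2.36 and 5.77 on the injected sides of mice 1 to 4, against 1.53, 0.265, 0.624, 0.863 and 0.171 on the uninjected sides of mice 1 to 5. All GFP injected sides were above all uninjected sides, and the difference was 2.38 ± 0.41 (SE; limma, adjusted p = 0.0189).

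Over the miR-181 set, every injected side was above every uninjected side for 9 of the 10 genes, all but Tlr4, a pattern found in 16.0% of all genes tested. The same held in the GFP set for 4 genes, Tlr2, Tlr7, Unc93b1 and Zbp1, against 3.29% of all genes tested. The calls depended on single libraries. Zbp1 was the sensor gene still called without any 1 of the 6 miR-181 libraries (highest adjusted p = 0.0338), whereas each of the other 6 lost its call without uninjected mouse 1, 2 or 3 or injected mouse 3, where 1 gene was called, and Tlr9, Ddx58 and Ifih1 also without injected mouse 2, where 4 were called. Over all genes 0.731% to 1.13% were called higher in the fits without uninjected mouse 1, 2 or 3 or injected mouse 3, and 2.57% without injected mouse 2. Without injected mouse 1 the sensor calls numbered 9, with Tlr3 and Myd88 added, while the share of all genes called higher was 7.84%. Zbp1 was no longer called on GFP injected sides when the library of injected mouse 1, injected mouse 2, injected mouse 4, or of uninjected mouse 2, 3 or 5 was left out (adjusted p up to 0.0731). Leaving out both pituitary-bearing libraries of GFP mouse 1 gave 3 calls again, with 0.925% of all genes called higher. In the authors' deposited tables, the first q-value was under 0.05 for 8 of the 10 genes in the miR-181 set, against 10.7% of all genes with one, and for 5 of 10 in the GFP set, against 1.98%. The second q-value in the authors' deposited tables was under 0.05 for 6 genes in the miR-181 set, against 5.45% of all genes, and for 3 in the GFP set, against 1.16%. The table headers name neither test.

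On uninjected sides Unc93b1 had the highest and Zbp1 the lowest mean level in both sets, the libraries of Zbp1 overlapping with those of Tlr4, the next lowest. On miR-181 injected sides Zbp1 stood second, at a mean of 37.3, behind Unc93b1 at 58.7 and ahead of Ddx58 at 32.1 and Tlr3 at 21.9. Libraries of neighbours in that order overlapped throughout, except that all of Tlr9 lay above all of Tlr4. On GFP injected sides Zbp1, at 5.76, stood between Myd88 at 8.62 and Tlr2 at 4.04, and its libraries overlapped with those of both.

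The sets were compared by the log2 change of each mouse, injected minus uninjected. In the miR-181 mice the median change over the 10 genes was 0.88 in mouse 1, 2.04 in mouse 2 and 1.71 in mouse 3, and in the GFP mice 0.63, 0.32, 0.51 and 0.71 in mice 1 to 4. All 9 genes tested had a larger mean change in the miR-181 mice, with a median difference of 0.86, and none passed the adjusted threshold (limma over 14824 genes, 0.0337% called in either direction). At an unadjusted p under 0.05 there were 7, all but Tlr3 and Tlr9, and 15.3% of all genes tested. Ddx58 had the smallest p, with a difference of 1.86 ± 0.28 (SE; limma, adjusted p = 0.0866), then Zbp1 with 2.67 ± 0.47 (SE; limma, adjusted p = 0.0959) and Tlr7 with 1.04 ± 0.30 (SE; limma, adjusted p = 0.179). The smallest differences were those of Tlr3, 0.44 ± 0.26, and Unc93b1, 0.53 ± 0.22 (SE).

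Without miR-181 mouse 1, whose median change was the smallest, 5 of the sensor genes were called in the difference (Tlr7, Myd88, Ddx58, Ifih1 and Zbp1), in a fit that called 2.17% of all genes. A fit of the interaction over all 15 libraries called Ddx58 alone of the sensor genes (1.87, adjusted p = 0.0466) and 0.304% of all genes. The sets differ in vector, in dose and in sequencer, and each was prepared as its own library set, so these cannot be told apart.

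**Figure D2:**
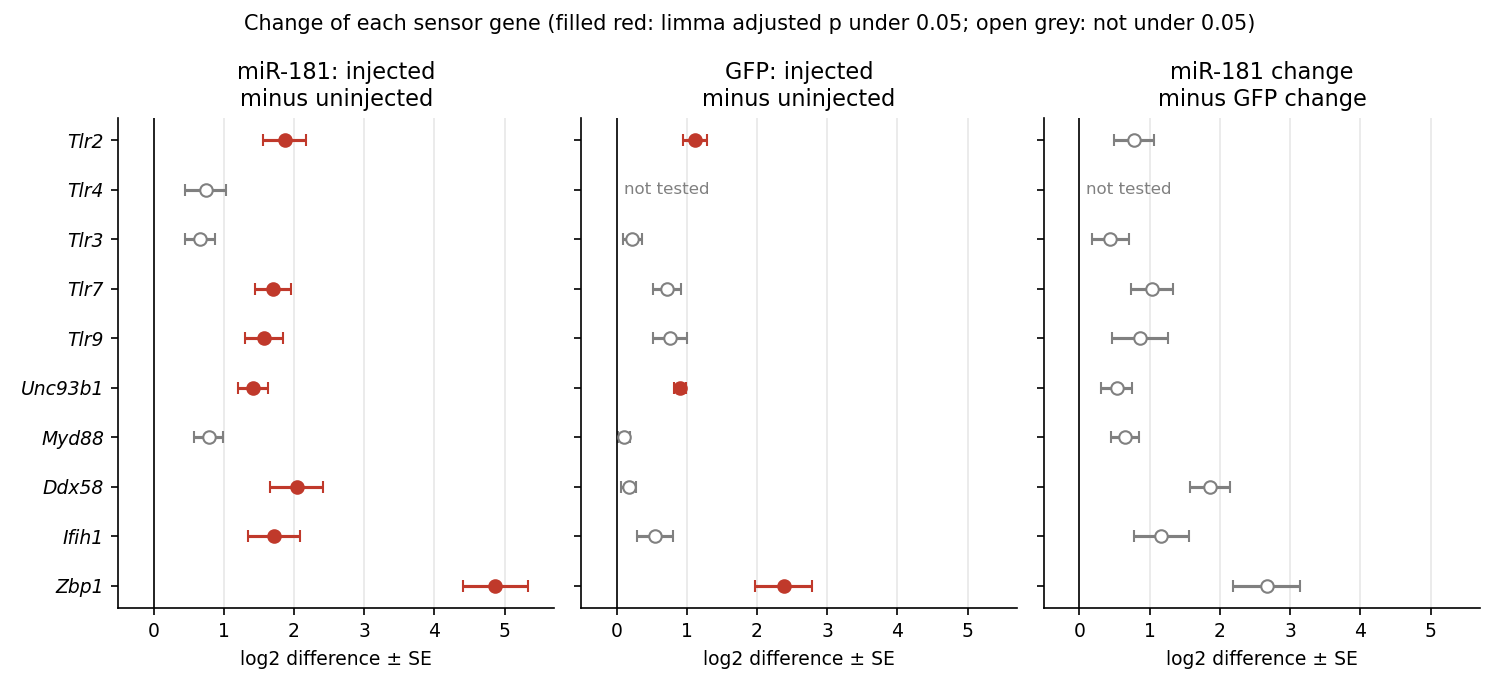
Log2 difference ± SE of each gene for injected minus uninjected sides in the miR-181 set (left) and the GFP set (middle), and for the miR-181 change minus the GFP change (right). Filled red points have a limma adjusted p under 0.05: 7 genes, 3 genes and none.

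Genes of microglia moved with these results. Of 11 microglial marker genes 8 were called higher on miR-181 injected sides and 7 on GFP injected sides. Over all genes tested, 4.39% were called higher and 1.49% lower in the miR-181 set, and 1.34% higher in the GFP set. The summed abundance of the microglial genes was 623 to 863 on miR-181 injected sides against 368 to 393 on uninjected sides, and 425 to 506 on GFP injected sides against 276 to 348 on theirs. In the miR-181 set 5 of 7 tested T and NK cell genes, 3 of 4 B and plasma cell genes, 2 of 3 dendritic cell genes, 1 of 6 macrophage and monocyte genes and 2 of 5 astrocyte genes were called higher. The dendritic cell gene Flt3 was called lower, a call lost with mouse as a block (limma, adjusted p = 0.0764) and in 5 of the 6 fits without 1 library. The T and NK cell calls numbered 0 without injected mouse 3 or uninjected mouse 1, 2 or 3, the B and plasma cell calls 0 without uninjected mouse 1 or 2, and the microglial calls 1 to 8 without 1 library, the fewest without uninjected mouse 2. The astrocyte calls numbered 0 without injected mouse 3 or uninjected mouse 1, 2 or 3, and the macrophage and monocyte calls 0 in every fit without 1 library except that without injected mouse 1. The share of all genes called higher in these miR-181 fits ranged from 0.731% to 7.84%. With mouse as a block Aqp4 (adjusted p = 0.0594), 1 of the 2 astrocyte genes, and the microglial gene Olfml3 (0.0502) were no longer called. That fit called 3.69% of all genes higher. Summed T and NK cell genes stood at 36.6 to 128 on miR-181 injected sides against 12.2 to 17.4 on uninjected sides, B and plasma cell genes at 785 to 4555 against 50.2 to 90.7, dendritic cell genes at 83.0 to 258 against 25.7 to 28.9, and astrocyte genes at 1303 to 1669 against 915 to 1045. Most of the dendritic cell sum on these injected sides was Bst2, which averaged 151 there and 11.6 on the uninjected sides. Bst2 and Itgax were the dendritic cell genes called higher in both sets. Xcr1, Clec9a, Cd209a and Ccr9 were too low to test. In the miR-181 set Cd209a averaged 0.261 on injected sides against 0.466 on uninjected sides, while Xcr1, Clec9a and Ccr9 averaged higher on injected sides. On GFP injected sides 0 of 3 T and NK cell genes, 2 of 2 B and plasma cell genes, 2 of 3 dendritic cell genes, 0 of 6 macrophage genes and 1 of 5 astrocyte genes were called higher. Both B and plasma cell calls, Jchain and Igkc, were lost with mouse as a block (limma, adjusted p = 0.136 and 0.173), as were the dendritic cell gene Itgax (0.0682) and the microglial genes Siglech (0.0900) and Olfml3 (0.0602). The block fit called 0.799% of all genes higher in the GFP set. Without injected mouse 4 or uninjected mouse 2, 4 or 5 the B and plasma cell calls numbered 0, and the single astrocyte call, Gfap, was lost in 7 of the 9 fits without 1 library. The share of all genes called higher in these 9 fits ranged from 0.706% to 1.64%. In the GFP set summed T and NK cell genes stood at 24.1 to 28.8 on injected sides against 9.42 to 19.9 on uninjected sides, and B and plasma cell genes at 59.9 to 1391 against 2.73 to 24.9. No gene of the endothelial, neuronal or oligodendrocyte lists was called in either set, and no neutrophil gene was abundant enough to test, 1 of 5 being listed at 0 in every GFP library. The neuronal list had a median log2 difference of -0.28 in the miR-181 set and -0.0088 in the GFP set. In the miR-181 set Tubb3 differed by -0.31 and Snap25 by -0.27 (limma, adjusted p = 0.0534 and 0.121). Each was called in 1 of the 6 fits without 1 library. Syt1 differed the other way, by 0.097. The part of these cell types in the changes of the sensor genes was not tested.

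Set against the median change of the microglial genes in the same mouse (0.65, 1.21 and 0.88 in miR-181 mice 1 to 3; 0.53, 0.39, 0.61 and 0.67 in GFP mice 1 to 4), the sensor genes lay on both sides. Zbp1 exceeded that median in 3 of 3 miR-181 mice, by 3.96 ± 0.65, and in 4 of 4 GFP mice, by 1.65 ± 0.75 (mean ± SD, log2). Tlr2 did so by 0.95 ± 0.37 and 0.53 ± 0.19, and Unc93b1 by 0.51 ± 0.28 and 0.34 ± 0.14, again in every mouse of both sets. Ddx58 exceeded it in 3 of 3 miR-181 mice, by 1.13 ± 0.42, but in 1 of 4 GFP mice, where its mean was -0.37 ± 0.31. The microglial genes spread widely around their median. Their fitted log2 differences ran from 0.027 (Fcrls) to 1.995 (Aif1) in the miR-181 set. In the GFP set they ran from -0.078 (Fcrls) to 1.127 (Aif1). The fitted differences of Tlr2, Unc93b1, Tlr7 and Tlr9 lay within that range in both sets, and that of Zbp1 lay above it in both.

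Tlr7 and Tlr9 were above the microglial median in 3 of 3 miR-181 mice, by 0.79 ± 0.46 and 0.66 ± 0.41, and in 2 and 3 of 4 GFP mice. Ifih1 was above it in 2 of 3 miR-181 mice and 2 of 4 GFP mice. Tlr3 stood below it in every mouse, at -0.25 ± 0.25 in miR-181 mice and -0.32 ± 0.36 in GFP mice. Myd88 and Tlr4 were each above it in 1 of 3 miR-181 mice and 0 of 4 GFP mice. These values are descriptions and carry no test.

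**Figure D3:**
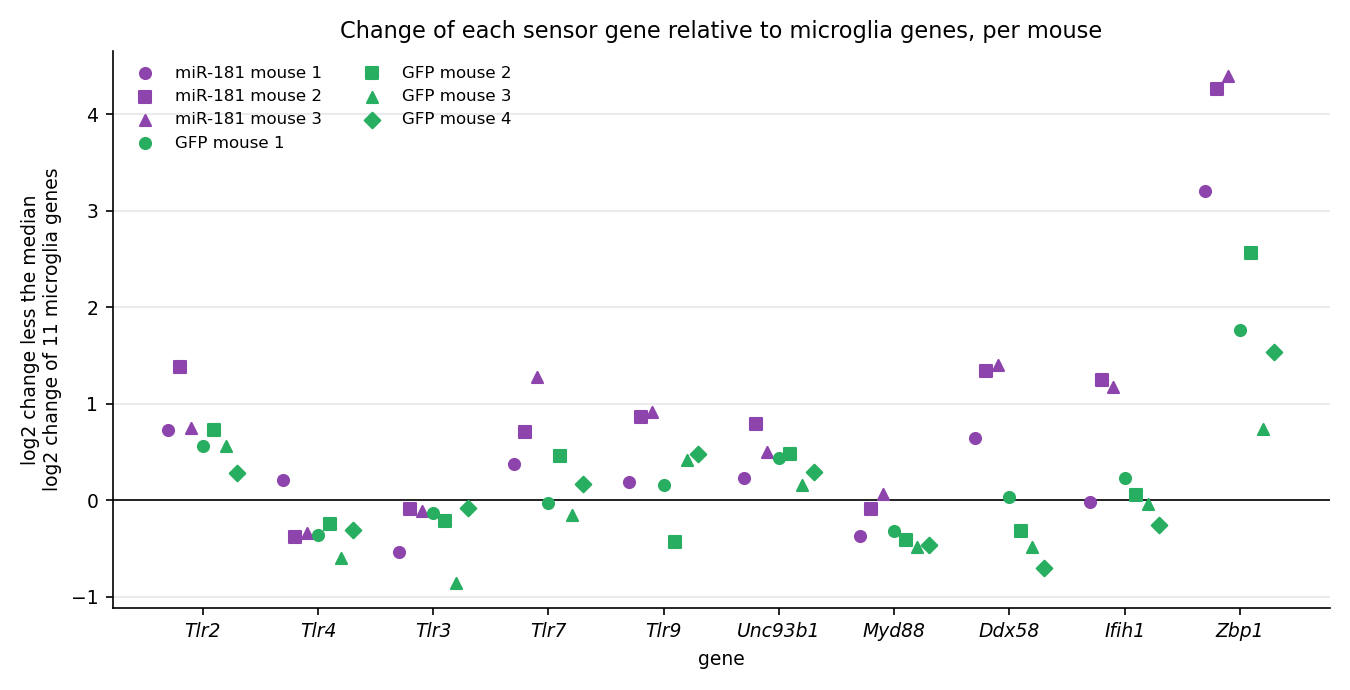
Log2 change of each gene less the median log2 change of 11 microglial genes in the same mouse, 1 point per mouse, for 3 miR-181 mice and 4 GFP mice. Zbp1 lies above 0 in all 7 mice, Tlr3 below 0 in all 7.

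Among the other genes of these pathways, 33 of 63 tested were higher and 0 lower on miR-181 injected sides (median log2 difference 0.68). Over all genes tested in that set 4.39% were called higher. On GFP injected sides 7 of 58 were higher and 0 lower (0.19), against 1.34% of all genes called higher. The 7 were Ly86, Ifi204, Ifi211, Oas1a, Ddx60, Irf8 and Irf9. By family, 3 of 4 further TLRs tested were called higher in the miR-181 set, of 7 listed. Genes were kept by their mean over both sides. Tlr12, Tlr1 and Tlr6 averaged under 1 on uninjected sides, so they were tested only through their injected sides. Tlr5, Tlr8 and Tlr11 were too low to test. Tlr5 averaged 0.811 on injected sides against 1.03 on uninjected sides, while Tlr8 and Tlr11 averaged higher on injected sides. Tlr12, which in mouse recognises profilin, averaged 2.85 ± 0.729 on the injected sides and 0.510 ± 0.0935 on the uninjected sides (SD, n = 3 each; log2 difference 1.71, limma adjusted p = 0.0130). Tlr13, a mouse receptor for bacterial ribosomal RNA, differed by 1.12 (adjusted p = 0.0162) and Tlr1 by 1.68 (adjusted p = 0.0314), while Tlr6, with 0.96, did not pass (adjusted p = 0.114). In the GFP set neither of the 2 tested passed.

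Of 13 co-receptors and accessory proteins 7 were higher on miR-181 injected sides. Among them Cd36 averaged 0.750 on uninjected sides, under the minimum mean of 1, and was tested only through its injected sides. Ly86, the partner of the B cell TLR homologue CD180, averaged 84.4 ± 29.3 on the injected sides and 21.8 ± 2.61 on the uninjected sides (SD, n = 3 each; log2 difference 1.88, limma adjusted p = 0.00816), and Cd180 differed by 2.31 (adjusted p = 0.00866). Lgmn, a protease that processes endosomal TLRs, differed by 0.48 (adjusted p = 0.0209). Rnaset2b differed by 0.67 (adjusted p = 0.0161) but has a near-identical copy, Rnaset2a, so reads may have been split between them. On GFP injected sides 1 of 12 was higher, Ly86, by 1.17 (adjusted p = 0.00262). Ly86 was called without any 1 of the 9 GFP libraries.

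Below the receptors in the signalling chain, of 13 TLR adaptors and kinases 1 was higher on miR-181 injected sides, Irak4, the first kinase recruited by MyD88, at 4.45 ± 0.585 on the injected sides and 2.55 ± 0.133 on the uninjected sides (SD, n = 3 each; log2 difference 0.69, limma adjusted p = 0.0397). Tab2, Traf3 and Irak2 had log2 differences of 0.24, 0.29 and 0.22 (adjusted p = 0.0608, 0.203 and 0.385). The median of this list was 0.13 in the miR-181 set and 0.0013 in the GFP set, where 0 of 13 passed.

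Of 10 further genes of the RIG-I-like receptor pathway 5 were higher in the miR-181 set and 0 in the GFP set. Trim25, a ubiquitin ligase that activates RIG-I, averaged 15.3 ± 6.02 on the injected sides and 4.79 ± 0.106 on the uninjected sides (SD, n = 3 each; log2 difference 1.49, limma adjusted p = 0.0346), and Rnf135, another RIG-I ligase, differed by 0.81 (adjusted p = 0.0417). Zc3hav1, the zinc finger antiviral protein, differed by 1.45 (adjusted p = 0.0340) and the kinase gene Ikbke by 0.87 (adjusted p = 0.0281).

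Cytosolic DNA sensing genes were called higher in 8 of 9 cases in the miR-181 set and in 2 of 9 in the GFP set, against 4.39% and 1.34% of all genes. Of 12 listed, 10 had values. Cgas was too low to test, at means of 1.19 on injected against 0.699 on uninjected sides in the miR-181 set, and 0.932 against 0.527 in the GFP set. Ifi204 and Ifi211 averaged under 1 on uninjected sides of both sets, so they were tested only through their injected sides. Ifi211 averaged 11.9 ± 5.28 on the injected sides and 0.409 ± 0.0498 on the uninjected sides (SD, n = 3 each; log2 difference 3.66, limma adjusted p = 0.00425), and Ifi204 differed by 3.59 (adjusted p = 0.00512). In the GFP set they differed by 1.76 and 1.93 (adjusted p = 0.0360 and 0.00851). Both belong to a mouse gene family of near-identical members, so their reads may have been split. Samhd1, an enzyme that depletes nucleotides, and Aim2, the DNA sensor of an inflammasome, differed by 1.31 and 1.04 in the miR-181 set (adjusted p = 0.0182 and 0.0189).

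Among 10 genes of Z-nucleic acid and double-stranded RNA binding or of the necroptosis chain below ZBP1, 6 were higher in the miR-181 set, and 2 of 8 in the GFP set. Of the genes called, Oas2, Oas3, Mlkl and Ddx60 in the miR-181 set averaged under 1 on uninjected sides, as did Ddx60 in the GFP set. They were tested only through their injected sides. Eif2ak2, the RNA-activated kinase PKR, averaged 24.5 ± 8.84 on the injected sides and 6.97 ± 0.692 on the uninjected sides (SD, n = 3 each; log2 difference 1.68, limma adjusted p = 0.0208). Oas1a differed by 3.36 and 1.40 in the miR-181 and GFP sets (adjusted p = 0.0182 and 0.0499), with near-identical Oas1 copies that may share its reads, and Ddx60 by 2.97 and 1.32 (adjusted p = 0.0142 and 0.0320). Mlkl, which perforates the membrane in necroptosis, differed by 1.64 in the miR-181 set (adjusted p = 0.0279).

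Interferon regulatory factors rose in 4 of 5 cases in the miR-181 set and 2 of 5 in the GFP set. Irf7, the factor below TLR7 and TLR9, averaged 84.3 ± 53.1 on the injected sides and 3.65 ± 0.603 on the uninjected sides in the miR-181 set (SD, n = 3 each; log2 difference 4.05, limma adjusted p = 0.0147), and 17.2 ± 11.98 on the injected sides and 4.36 ± 1.22 on the uninjected sides in the GFP set (SD, n = 4 and 5), where its difference of 1.69 had an adjusted p of 0.0504. Irf8 differed by 2.13 and 1.41 in the miR-181 and GFP sets (adjusted p = 0.00595 and 0.00219). Irf9 differed by 2.07 and 0.76 (adjusted p = 0.0153 and 0.0174), and Irf5 by 1.14 in the miR-181 set (adjusted p = 0.0147). Without injected mouse 1, 2 or 3 of the miR-181 set 36, 20 or 6 pathway genes were called, and without uninjected mouse 1, 2 or 3 they numbered 4, 3 or 6. The share of all genes called higher in these fits ranged from 0.731% to 7.84%. For the GFP set the pathway calls numbered 3 to 11, with 11 without uninjected mouse 1, 3 without uninjected mouse 3 or 5, and 4 without injected mouse 4 or uninjected mouse 4. Ifi211, Ifi204 and Irf8 were called without any 1 of the 6 miR-181 libraries. With mouse as a block 27 pathway genes were called in the miR-181 set and 5 in the GFP set, and among the genes named here Irak4, Rnf135 and Mlkl missed the threshold in the miR-181 set (limma, adjusted p = 0.0727, 0.0684 and 0.0562), as did Ifi211, Oas1a and Ddx60 in the GFP set (0.217, 0.0565 and 0.133).

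**Figure D4:**
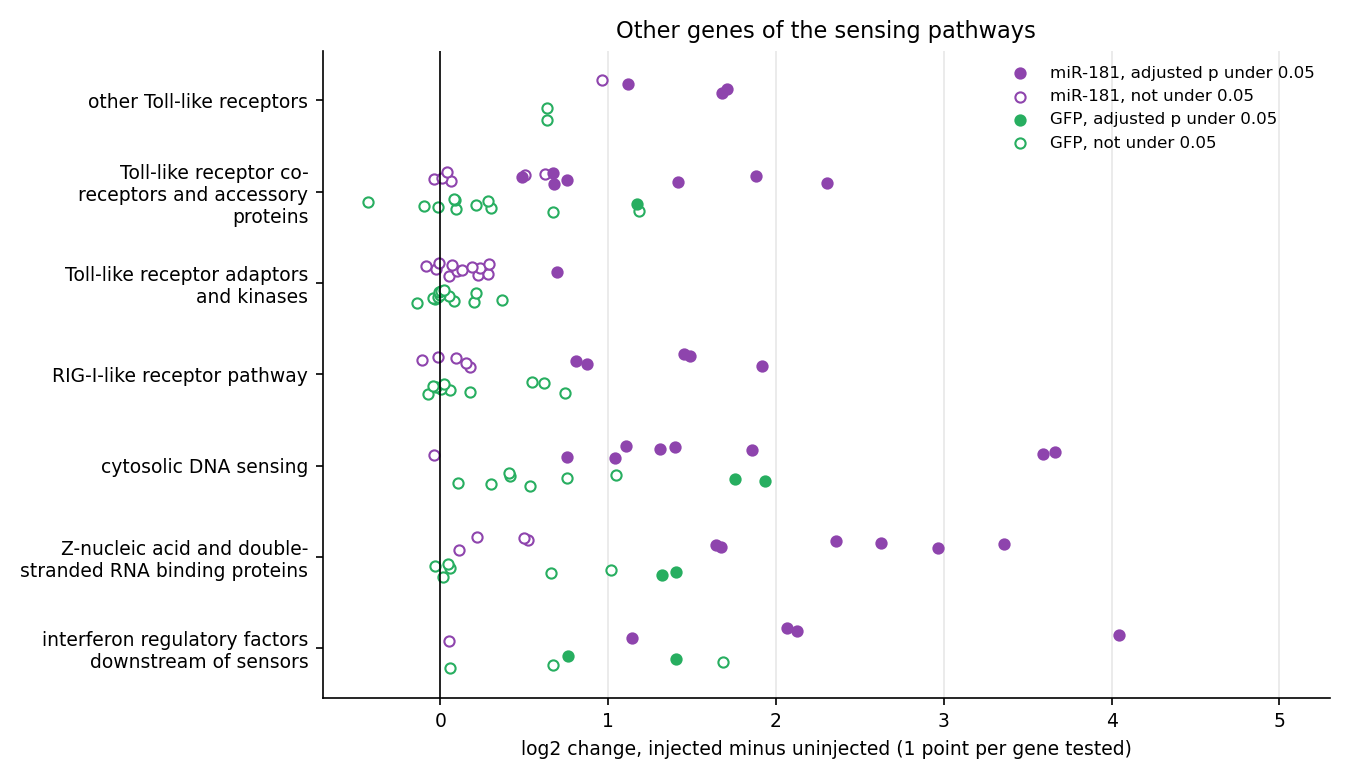
Log2 difference, injected minus uninjected, of each pathway gene tested, by list and set, with filled points for a limma adjusted p under 0.05. Each gene has 1 point per list, and Dnase2a, which is in more than 1 list, has a point in each. Counted once each, 33 of 63 genes are filled in the miR-181 set and 7 of 58 in the GFP set.

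Promoter windows from RefSeq (GRCm38.p6; 250 bases before to 50 after the start) were at hand for 6 of the 10 genes: Tlr2, Tlr3, Tlr9, Myd88, Ddx58 and Ifih1. They were searched on both strands for the core of the interferon-stimulated response element (ISRE; GAAA, then any 2 bases, then GAAA), for the gamma-activated site (GAS; TTCNNNGAA) and for the NF-kB motif. The ISRE core was found in 3 of the 6, Ddx58, Ifih1 and Myd88, and in 3.44% of all 32851 windows. The 3 windows with it are shown 5′ to 3′ on the strand of the gene, which is the minus strand for each, with the matches in capitals. They cover chr4:40239776-40240075 for Ddx58, chr2:62646206-62646505 for Ifih1 and chr9:119339969-119340268 for Myd88.
Ddx58: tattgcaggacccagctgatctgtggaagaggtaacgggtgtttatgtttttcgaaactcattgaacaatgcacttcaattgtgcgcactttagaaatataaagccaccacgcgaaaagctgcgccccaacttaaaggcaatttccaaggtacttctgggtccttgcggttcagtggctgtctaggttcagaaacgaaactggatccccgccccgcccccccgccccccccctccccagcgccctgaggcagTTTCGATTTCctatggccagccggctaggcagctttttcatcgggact
Ifih1: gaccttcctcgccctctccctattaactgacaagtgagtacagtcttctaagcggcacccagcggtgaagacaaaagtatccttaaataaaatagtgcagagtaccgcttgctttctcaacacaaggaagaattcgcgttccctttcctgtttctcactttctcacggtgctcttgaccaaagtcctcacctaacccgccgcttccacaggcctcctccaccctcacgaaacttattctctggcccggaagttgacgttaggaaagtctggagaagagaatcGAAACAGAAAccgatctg
Myd88: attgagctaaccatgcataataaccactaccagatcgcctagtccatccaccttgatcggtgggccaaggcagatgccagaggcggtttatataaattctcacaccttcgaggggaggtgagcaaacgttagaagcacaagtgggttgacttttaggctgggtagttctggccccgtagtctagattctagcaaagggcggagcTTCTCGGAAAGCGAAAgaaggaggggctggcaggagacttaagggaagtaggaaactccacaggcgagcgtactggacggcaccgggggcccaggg
Counting the start as 1, the match spanned bases 3 to 12 in Ddx58, read on the other strand, and bases 33 to 42 in Ifih1. In Myd88 it spanned bases -40 to -31 and overlapped the single GAS match of the 6 windows, at -46 to -38; GAS was found in 8.30% of all windows. The sequence matches are descriptions: Ddx58 and Ifih1 were called higher on miR-181 injected sides and Myd88 was not.

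The NF-kB motif was found in 2 of the 6 windows, those of Tlr2 and Tlr3, and in 4.51% of all windows. The Tlr2 window is shown because Tlr2 was called in both sets. It covers chr3:83841559-83841858, on the minus strand, with matches in capitals: overlapping ones from base -173 to -163 and another from -8 to 2.
Tlr2: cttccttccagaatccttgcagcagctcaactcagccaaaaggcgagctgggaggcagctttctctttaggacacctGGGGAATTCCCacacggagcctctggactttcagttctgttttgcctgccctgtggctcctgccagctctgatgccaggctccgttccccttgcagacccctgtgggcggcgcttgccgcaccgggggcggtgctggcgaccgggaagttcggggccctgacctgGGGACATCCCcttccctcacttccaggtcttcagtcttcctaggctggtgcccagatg
In Tlr3, which was called in neither set, the match spanned bases -211 to -202. The Tlr9 window held none of these motifs.

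**Figure D5:**
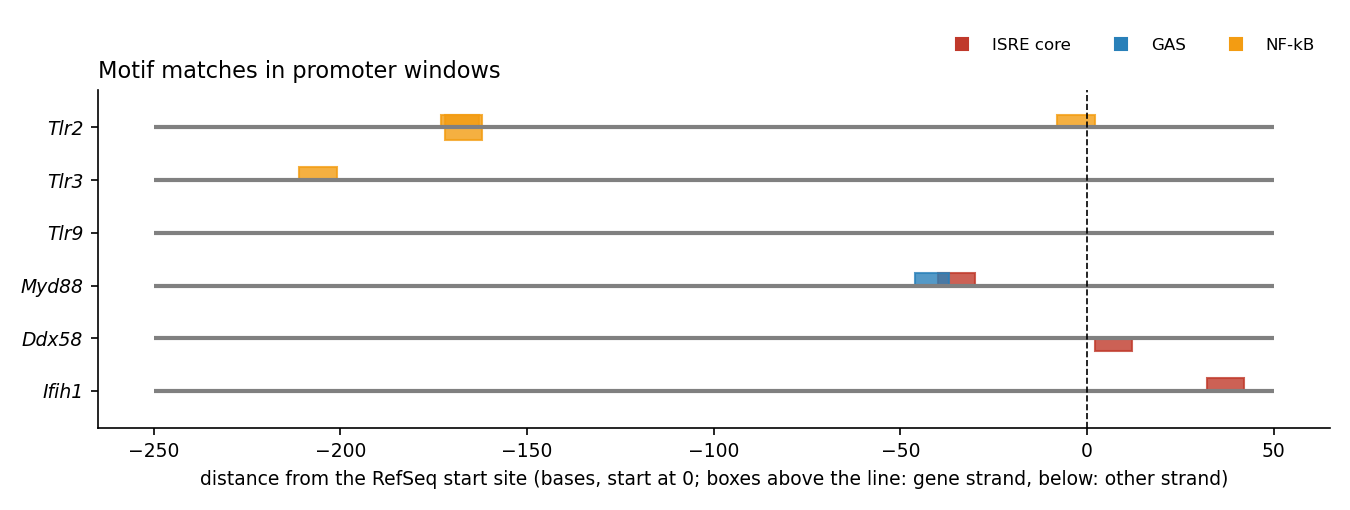
Positions of ISRE core, GAS and NF-kB matches in the windows of 6 genes, as distance in bases from the RefSeq start site, with boxes above a line on the strand of the gene and below it on the other strand. Tlr9 has no box, and the 2 boxes of Myd88 overlap.

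For each of the 10 genes, the gene most like it was sought among genes tested in both sets. The 10 themselves, symbols made of Gm and digits, and symbols ending in Rik were left out. The gene taken was the 1 with the highest correlation of log2 values in both sets (Pearson, the lower of the values over 6 miR-181 and 9 GFP libraries deciding). Those libraries share mice and the contrast of injected with uninjected sides, so the correlations are descriptions. They were closest for Tlr2 with Ms4a6d (0.995 and 0.994) and for Unc93b1 with C1qc, which encodes a chain of complement C1q (0.992 and 0.993). Zbp1 went with Psmb9, an immunoproteasome subunit (0.993 and 0.977), Tlr7 with Gbp9 (0.987 and 0.958), Tlr9 with Nmi (0.954 and 0.955) and Ifih1 with Herc6 (0.983 and 0.938). The highest values were lower for Myd88 with Lamp2 (0.952 and 0.882), Tlr4 with Bin3 (0.920 and 0.879), Tlr3 with Cbx1 (0.908 and 0.878) and Ddx58 with Svbp (0.881 and 0.856).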

How the data were processed

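Stranded poly(A) libraries were made from nigral RNA and sequenced as 1 set per vector, per the labels' protocols. The authors quantified reads with kallisto 0.43.1 and sleuth 0.30.0 on GRCm38, per the submitters' processing notes. The deposited signal values are normalized abundances per gene and library, read here as TPM divided by a size factor, a reading taken from the tools and from library sums near those of TPM. They are not counts, so depth is unknown and a count test was not used. The q-values (adjusted p-values) are the authors', from the deposited tables.

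Of 36660 rows with values, 395 repeats of the same symbol and values were dropped, which left 36265 genes. Samples were grouped by the labels. Each set was fitted alone with limma 3.58.1 in R 4.3.3, with a trend, on log2(value + 0.5), two-sided, keeping genes whose mean over its libraries reached 1. A gene with a mean under 1 on uninjected sides was thus tested only if its injected sides were higher. The difference between the sets used 1 log2 change per mouse (3 miR-181 and 4 GFP mice). Script fits were tested on simulated data. The sides of a mouse pair by animal; deviations from group means correlated by 0.14 to 0.257 in the miR-181 set and 0.0177 to 0.192 in the GFP set. Replicates are separate mice.

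Alternatives were other pseudocounts (0.1 and 1), other minimum means (0.1, 5 and none), no trend, median centring, quantile normalization, mouse as a block, and each library left out. The sensor genes, the pathway and cell type lists and the tests were chosen with earlier results of these data known. Of each pathway list the 4 genes with the smallest p in the miR-181 set were named. Gene positions are from GENCODE M21, promoter windows from RefSeq. Protein sequences were not used here.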

Additional observations from a re-analysis of the deposited data

How the results depend on the processing

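Limma on log2(value + 0.5) was repeated under each alternative. In the miR-181 set, genes called numbered 315 with no filter and 449 without the intensity trend, against 908, sensor genes 1 with no filter, against 7, and pathway genes 10 and 21, against 33. Leaving out 1 library gave 117 to 1924 genes, 1 to 9 sensor genes and 3 to 36 pathway genes. In the GFP set a minimum mean of 5 left 136 of 206 genes, 1 of 3 sensor genes and 3 of 7 pathway genes, and leaving out 1 library gave 108 to 255 genes, 2 to 3 sensor genes and 3 to 11 pathway genes. At the minimum of 5 Tlr2 and Zbp1, with means of 2.69 and 2.94 over the GFP libraries, were not tested. Unc93b1 stayed called there (limma, adjusted p = 0.000613). For the difference between the sets, genes called numbered 2 with a minimum mean of 0.1, 1 with no filter, 3 without the trend, 1 after quantile normalization and 45 by the interaction over 15 libraries with no replicate block, against 5, and 1 to 321 without 1 mouse; sensor genes numbered 1 by that interaction and 0 to 5 without 1 mouse, against 0. With mouse as a replicate block, the GFP set had 124 genes called. Among the sensor genes the block ended the Ifih1 call in the miR-181 set (adjusted p = 0.0671) and no other. Ifih1 also lost its call with a pseudocount of 1 (0.0509), a minimum mean of 0.1 (0.0645) and no trend (0.0878), the last also ending that of Ddx58 (0.0638). No sensor gene changed direction under any alternative run. Fewer genes were tested at higher minimums and fewer samples when a library was left out; other causes were not tested. Read depth is unknown, so no counting error can be given for genes at low values such as Zbp1 and Tlr4 on uninjected sides.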

Other observations

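Cytokine genes that act below these sensors had low values: none of the 10 listed reached a mean of 1 in either set, so none was tested. The list was written after the data had been seen. Tnf had 1.48, 2.39 and 1.56 on the injected sides of miR-181 mice 1 to 3, against 0.0430, 0.106 and 0 on their uninjected sides. In GFP mice Tnf had 0.450, 0.112, 0.164 and 0.210 on injected sides 1 to 4, against 0, 0.0821, 0, 0 and 0 on uninjected sides 1 to 5. Il1b had 0.657, 2.43 and 1.00 on miR-181 injected sides, against 0.269, 0.0383 and 0.127 on uninjected sides, and 1.47, 0.662, 0.490 and 0.519 on GFP injected sides, while it was listed at 0 on all 5 GFP uninjected sides. For both genes every injected side was above every uninjected side of its set, a pattern found in 16.0% and 3.29% of all genes tested in the miR-181 and GFP sets. Those shares cover genes with a mean of at least 1, which neither Tnf nor Il1b reached, so they are no like background for these 2. Of the same list, Il6 averaged 0.397 on miR-181 injected sides against 0.108 on uninjected sides, but 0.213 against 0.258 in the GFP set. Il12b averaged 0.890 against 0.0214 and Il10 0.208 against 0.0280 in the miR-181 set. In the GFP set they averaged 0.0565 against 0.0126 and 0.154 against 0.

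Ifng had 0.420, 1.63 and 0.540 on miR-181 injected sides, against 0.0536, 0 and 0 on uninjected sides, and was listed at 0 in all 9 GFP libraries. Among the type I interferon genes, Ifnb1, Ifna1 and Ifna2 were each above 0 in 1 of 15 libraries, at most at 0.266, 0.127 and 0.123, and Ifna4 was listed at 0 in all 15.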
